A study of Mus musculus with 9 samples.

Results

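The 10 genes described here were chosen by name as products of neutrophil granules, calprotectin subunits or genes of the mature neutrophil, out of the 22180 genes with a probe set of a single symbol. They are S100a8, S100a9, Mpo, Elane, Ltf, Camp, Ngp, Mmp8, Retnlg and Cxcr2, each with 1 probe set. They were chosen with earlier results of these data known. Their RNA was measured on 9 Affymetrix arrays of renal cortex from 20-week-old male C57BLKS/J mice, with 3 arrays in each of 3 groups. The db/db+TSF mice, homozygous for the diabetes mutation of the leptin receptor, were gavaged with TSF, the Tang-shen formula of Chinese herbal medicine, at 2.4 g/kg/day over 12 weeks. The db/db mice carry the same mutation and received saline, and the db/m mice are the lean controls with 1 mutated copy. The protocol counts 9 mice in each db/db group, of which 3 arrays per group were analysed, and states nothing about how the db/m mice were treated. The db/db mouse becomes obese and diabetic through loss of leptin signalling in the whole body, and both db/db groups share that loss.

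Neutrophils store their weapons in granules that form in sequence while the cell matures in the bone marrow. Primary granule proteins are made first, in promyelocytes, secondary granule proteins follow, and tertiary granule proteins and surface receptors come last. Calprotectin, the calcium- and zinc-binding dimer of S100A8 and S100A9, fills the cytosol of the mature cell and acts as an alarm signal on TLR4 when it is released. In kidney the RNA of these genes comes mainly from neutrophils in vessels or in the tissue, while injured tubule cells can make some neutrophil products themselves, lipocalin-2 being the best known.

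The transcription factors C/EBP and PU.1 drive many of these genes in developing neutrophils. The 250 bases upstream of the annotated start are shown for S100a8, S100a9, Ngp and Retnlg, which have large values in 1 array described below, and for Camp, which does not, so that sequence and level can be set side by side. All are RefSeq sequences of build GRCm38.p6, written 5′ to 3′ in the direction of the gene. Capitals mark the letters TTGCNNAA (a C/EBP motif) or GAGGAA (the PU.1 core) on either strand. S100a8 lies at chr3:90668821-90669070 on the plus strand, S100a9 at chr3:90695722-90695971 on the minus strand, Ngp at chr9:110419558-110419807 on the plus strand, Retnlg at chr16:48872358-48872607 on the plus strand and Camp at chr9:109849457-109849706 on the minus strand.
S100a8: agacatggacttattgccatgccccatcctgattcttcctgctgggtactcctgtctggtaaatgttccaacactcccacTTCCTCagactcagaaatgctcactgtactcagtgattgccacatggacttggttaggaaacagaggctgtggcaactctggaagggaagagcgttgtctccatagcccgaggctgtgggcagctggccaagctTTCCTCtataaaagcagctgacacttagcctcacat
S100a9: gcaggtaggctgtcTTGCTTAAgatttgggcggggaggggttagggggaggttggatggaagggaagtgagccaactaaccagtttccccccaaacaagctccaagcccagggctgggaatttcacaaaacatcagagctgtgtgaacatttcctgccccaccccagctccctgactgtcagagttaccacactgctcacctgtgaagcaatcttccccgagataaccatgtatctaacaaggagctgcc
Ngp: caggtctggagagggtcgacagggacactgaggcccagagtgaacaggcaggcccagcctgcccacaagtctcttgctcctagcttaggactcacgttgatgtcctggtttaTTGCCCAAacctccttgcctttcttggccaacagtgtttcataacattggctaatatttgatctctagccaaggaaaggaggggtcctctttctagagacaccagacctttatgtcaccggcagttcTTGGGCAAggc
Retnlg: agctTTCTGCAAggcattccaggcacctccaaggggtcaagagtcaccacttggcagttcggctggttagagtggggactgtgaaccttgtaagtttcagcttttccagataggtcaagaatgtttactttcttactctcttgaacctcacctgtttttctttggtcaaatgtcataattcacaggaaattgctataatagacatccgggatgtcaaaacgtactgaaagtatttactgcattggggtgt
Camp: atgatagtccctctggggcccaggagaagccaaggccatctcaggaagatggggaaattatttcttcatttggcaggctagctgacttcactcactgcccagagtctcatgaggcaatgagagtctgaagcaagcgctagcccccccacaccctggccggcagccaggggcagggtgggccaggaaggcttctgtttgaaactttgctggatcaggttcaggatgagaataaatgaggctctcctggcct

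S100a8 held the PU.1 letters at 170 and at 36 bases before its start, and no C/EBP letters. S100a9 held C/EBP letters at 236 bases before its start, Retnlg at 246 bases, and Ngp at 138 and 11 bases. Camp held neither motif in this window. Over the windows of 300 bases around the start, TTGCNNAA occurred in 5 of the 10 genes, against 10.8% of all 32851 RefSeq windows, and GAGGAA in 6 of the 10, against 28.3% of all windows. The level of Mpo ranged over 0.80 log2 units between arrays, against 3.94 for S100a8. Mpo held GAGGAA at 247 and 224 bases before its start, as many copies as S100a8. These are matches of letters, and no binding was measured.

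The 9 arrays had medians of 3.50 to 3.61 as log2(intensity + 1), the scale of all further levels unless intensity is named. As a check of the labelled tissue, 12 proximal tubule markers averaged between 10.9 and 11.3 in every array. Lepr, the mutated gene, was dim at 3.09 to 4.35 over the 9 arrays, and its level does not check the genotype, since the mutation alters splicing. The labels call the arrays of a group separate biological replicates, and p-values measure the spread between them. One array, db/db replicate 3, stood apart from its group for many of the genes described here, so values are given with and without it. An array was counted as standing apart above for a gene where it lay at least 1 log2 unit above both other arrays of its group. This threshold was chosen with earlier results of these data known.

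As a mean, the 10 neutrophil genes were dim in 8 of the 9 arrays and high in 1. Their mean log2 level was 5.09 in db/db replicate 3 and lay between 3.06 and 3.22 in the other 8 arrays, below the array medians. Single genes differed from the mean. Cxcr2 measured 3.99 to 4.68 in the other 8 arrays, above the array medians, and Camp reached only 2.58 in db/db replicate 3. Each of the 10 genes had its highest value of the 9 arrays in db/db replicate 3. The share of all genes with this pattern was not counted, here or for the lists below. Within the other 8 arrays none of the 10 genes ranged over more than 0.75, and Ngp ranged over 0.33. A low level on this platform cannot be told from background, as no detection calls were used here. In whole cortex, more neutrophils and more RNA per neutrophil cannot be told apart.

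**Figure D1:**
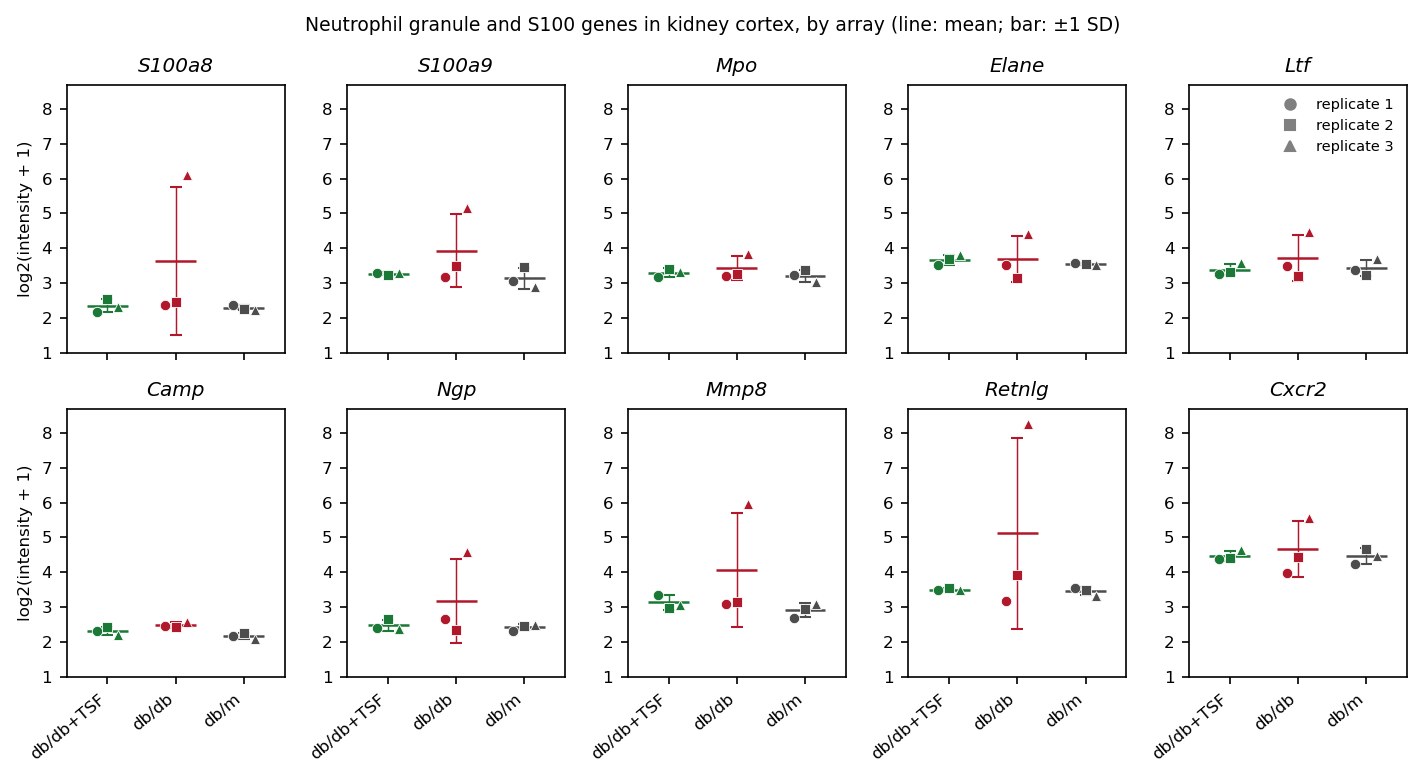
Levels of the 10 genes as log2(intensity + 1) on the 9 arrays, with each group's mean (line) and SD (bar). The triangle of db/db replicate 3 is the highest point of every panel, from 8.26 for Retnlg to 2.58 for Camp, while the other 8 arrays lie close together.

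Calprotectin showed this in both subunits. S100a8 measured 2.16, 2.54 and 2.32 in db/db+TSF kidneys, 2.36, 2.45 and 6.10 in db/db kidneys and 2.24 to 2.37 in db/m kidneys. The third db/db array was high and all others overlapped, and its intensity was 67.6 against 4.14 and 4.48 in the other db/db arrays. S100a9 measured 3.29, 3.22 and 3.30 in db/db+TSF kidneys, 3.18, 3.48 and 5.14 in db/db kidneys and 3.05, 3.47 and 2.89 in db/m kidneys. Again the third db/db array was high, and the other 8 overlapped. The gap of db/db replicate 3 to the mean of the other db/db arrays was 3.69 log2 units for S100a8, or 12.9-fold, and 1.81 for S100a9, or 3.51-fold.

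Among the granule proteins, the secondary and tertiary granule genes had gaps in db/db replicate 3 that ran from 0.14 for Camp to 2.83 for Mmp8. Mmp8, neutrophil collagenase, measured 3.36, 2.97 and 3.07 in db/db+TSF kidneys, 3.09, 3.14 and 5.95 in db/db kidneys and 2.68, 2.95 and 3.08 in db/m kidneys. Here db/db replicate 3 lay 2.83 above the mean of the other db/db arrays, and the lowest db/db array lay just above the highest db/m array. Ngp, neutrophilic granule protein, measured 2.41, 2.66 and 2.38 in db/db+TSF kidneys, 2.66, 2.34 and 4.57 in db/db kidneys and 2.32, 2.47 and 2.48 in db/m kidneys. Its gap in db/db replicate 3 was 2.07, and the other 8 arrays overlapped. Ltf, the iron-binding lactoferrin, measured 3.25, 3.32 and 3.57 in db/db+TSF kidneys, 3.47, 3.21 and 4.47 in db/db kidneys and 3.38, 3.22 and 3.69 in db/m kidneys. Its gap was 1.13.

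Camp, the cathelicidin precursor of secondary granules, behaved otherwise. It measured 2.30, 2.42 and 2.21 in db/db+TSF kidneys, 2.45, 2.44 and 2.58 in db/db kidneys and 2.16, 2.26 and 2.09 in db/m kidneys. All db/db arrays lay above all arrays of both other groups, and db/db replicate 3 exceeded the mean of the other db/db arrays by 0.14. These levels lay under the filter on dim genes, a mean of 2.65 log2 units, so Camp was not among the 17740 genes tested. The share of all genes whose db/db arrays lay above both other groups was not counted. The margin was narrow, with a lowest db/db value of 2.44 and a highest db/db+TSF value of 2.42.

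The primary granule genes had gaps of about 1 log2 unit or less. Mpo, the myeloperoxidase that makes hypochlorous acid, measured 3.16, 3.40 and 3.33 in db/db+TSF kidneys, 3.21, 3.27 and 3.84 in db/db kidneys and 3.23, 3.36 and 3.03 in db/m kidneys. Elane, neutrophil elastase, measured 3.50, 3.69 and 3.79 in db/db+TSF kidneys, 3.52, 3.14 and 4.42 in db/db kidneys and 3.57, 3.53 and 3.51 in db/m kidneys. In both genes db/db replicate 3 was the highest array, with gaps of 0.59 and 1.09, and the groups overlapped.

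Retnlg had the largest gap of the 10 genes. It encodes resistin-like gamma, a secreted protein of mouse bone marrow and blood neutrophils. It measured 3.48, 3.54 and 3.49 in db/db+TSF kidneys, 3.18, 3.93 and 8.26 in db/db kidneys and 3.55, 3.49 and 3.33 in db/m kidneys. On the intensity scale db/db replicate 3 reached 306, against 8.05 and 14.2 in the other db/db arrays, and its gap of 4.71 log2 units was 26.2-fold. Cxcr2, the receptor for chemokines that call neutrophils out of marrow and into tissue, measured 4.37, 4.42 and 4.63 in db/db+TSF kidneys, 3.99, 4.45 and 5.57 in db/db kidneys and 4.23, 4.68 and 4.46 in db/m kidneys. Its gap was 1.35, and outside db/db replicate 3 the arrays overlapped.

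Over all genes tested, db/db replicate 3 stood apart above for 51 of 17740, or 0.287%. It did so for 6 of the 9 tested neutrophil genes, namely S100a8, S100a9, Ngp, Mmp8, Retnlg and Cxcr2. Cxcr2 was just inside the rule, at 1.12 above the higher of the other db/db arrays, and Ltf at 0.998 and Elane at 0.90 were just outside, with Mpo at 0.57. Median scaling and quantile normalization gave the same 6 genes. By size of gap among the 17740 genes, Retnlg ranked 2, S100a8 3, Mmp8 5, Ngp 10, S100a9 14, Cxcr2 34, Ltf 47, Elane 50 and Mpo 236.

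None of the other 8 arrays stood apart above for any of the 9 tested neutrophil genes. Their shares over all genes were 0.0451%, 0.0902% and 0.0169% for db/db+TSF replicates 1, 2 and 3, 0.0564% and 0.0169% for db/db replicates 1 and 2, and 0.062%, 0.062% and 0.118% for db/m replicates 1, 2 and 3. The array db/db replicate 3 stood apart below for 9 genes, none of them a neutrophil gene, and its median gap over all tested genes was -0.004. S100a8 and Ngp passed the filter on dim genes only through this array, with means of 2.34 and 2.46 over the other 8 arrays. With no filter, db/db replicate 3 stood apart above for 6 of the 10 neutrophil genes and for 52 of 22180 genes, or 0.234%.

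**Figure D2:**
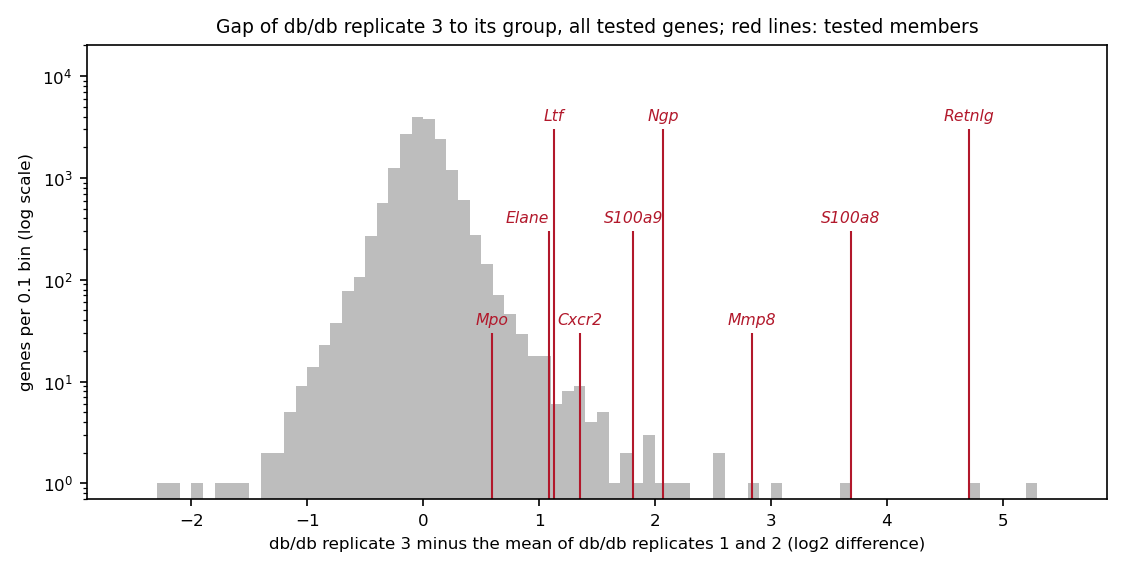
Histogram of the gap between db/db replicate 3 and the mean of db/db replicates 1 and 2 over the 17740 tested genes, with the gene count on a log axis and red lines at the 9 tested neutrophil genes. Most genes lie near 0, and 8 of the 9 red lines lie beyond 1, with Retnlg at 4.71.

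Diabetic cortex was set against lean cortex first, db/db against db/m. All 10 neutrophil genes, Camp included, had higher means in db/db than in db/m kidneys, but none of the 9 tested passed the threshold of an adjusted p of 0.05. The median difference of the 10 was 0.54 log2 units, against 0.0045 over all 22180 genes with no filter on dim genes, and it was 0.084 without db/db replicate 3. Over all genes 187 of 17740 passed, or 1.05%, and 2474 had an unadjusted p under 0.05. Of the 9 neutrophil genes 0 had an unadjusted p under 0.05 in limma, the linear model used throughout, with Benjamini-Hochberg adjustment over all genes tested.

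S100a8 averaged 3.64 ± 2.13 in db/db and 2.29 ± 0.072 in db/m kidneys (SD, n = 3 each), a log2 fold change of 1.35 with a 95% interval of -0.30 to 2.99 (SE 0.75, adjusted p = 0.458). S100a9 averaged 3.93 ± 1.06 in db/db and 3.14 ± 0.30 in db/m kidneys, a log2 fold change of 0.79 (SE 0.39, adjusted p = 0.392). The SD within db/db exceeded the difference between the groups for both subunits. Retnlg had the largest difference, 5.12 ± 2.75 in db/db and 3.45 ± 0.11 in db/m kidneys (log2 fold change 1.67, SE 0.96, adjusted p = 0.472).

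Mmp8 averaged 4.06 ± 1.64 in db/db and 2.91 ± 0.20 in db/m kidneys (log2 fold change 1.15, SE 0.58, adjusted p = 0.408). It was the single tested neutrophil gene whose db/db arrays all lay above the db/m arrays, a pattern that 10.4% of all tested genes showed. The log2 fold changes of the other genes were 0.76 for Ngp, 0.29 for Ltf, 0.23 for Mpo, 0.21 for Cxcr2 and 0.15 for Elane, with adjusted p-values between 0.466 and 0.822. Camp averaged 2.49 ± 0.080 in db/db and 2.17 ± 0.087 in db/m kidneys, a difference of 0.32 without overlap. In a fit with no filter on dim genes, over 22180 genes, its adjusted p was 0.161 (unadjusted p = 0.00507), so it did not pass there either.

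A difference was called carried by 1 array where leaving that array out took more than 50% off its size or turned its sign. The array db/db replicate 3 carried the db/db against db/m difference of 9 of the 10 genes. Without it the log2 fold changes were 0.12 for S100a8, 0.19 for S100a9, 0.21 for Mmp8, 0.097 for Retnlg, 0.072 for Ngp and 0.033 for Mpo. Elane, Ltf and Cxcr2 turned to -0.21, -0.088 and -0.24. With Camp, 7 of the 10 then lay above 0, and the adjusted p-values of the 9 tested genes lay between 0.605 and 0.949. Camp was the exception and kept 85.7% of its difference. Cxcr2 was also carried by db/m replicate 1, its lowest db/m array.

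The effect of the formula within diabetic mice was read from db/db+TSF against db/db. All 10 neutrophil genes had lower means in db/db+TSF kidneys, and none of the 9 tested passed. The median difference of the 10 was -0.50, against -0.021 over all 22180 genes, and it was 0.0012 without db/db replicate 3. No gene of any kind passed, at 0 of 17740, or 0%, with a smallest adjusted p of 0.145 and 2079 unadjusted p-values under 0.05. Of the 9 neutrophil genes 0 had an unadjusted p under 0.05. This comparison uses the same db/db arrays as the one with db/m, so the opposite signs are not independent of each other.

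S100a8 averaged 2.34 ± 0.19 in db/db+TSF and 3.64 ± 2.13 in db/db kidneys (SD, n = 3 each), a log2 fold change of -1.30 with a 95% interval of -2.94 to 0.35 (SE 0.75, adjusted p = 0.516). S100a9 averaged 3.27 ± 0.045 in db/db+TSF and 3.93 ± 1.06 in db/db kidneys (log2 fold change -0.66, SE 0.39, adjusted p = 0.525). The db/db+TSF arrays of both genes lay within the range of the db/m arrays and db/db replicates 1 and 2, apart from S100a8 in db/db+TSF replicates 1 and 2, which lay just outside it. The differences of the other genes were -1.62 for Retnlg, -0.93 for Mmp8, -0.71 for Ngp, -0.34 for Ltf, -0.20 for Cxcr2, -0.14 for Mpo and -0.033 for Elane.

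In none of the 9 tested genes did all db/db+TSF arrays lie above the db/db arrays, against 7.81% of all genes, and in none did they all lie below, against 12.3% of all genes. Camp, not tested, lay below without overlap, with means of 2.31 ± 0.10 in db/db+TSF and 2.49 ± 0.080 in db/db kidneys. With no filter on dim genes its adjusted p was 0.515. The array db/db replicate 3 again carried 9 of the 10 differences, all but that of Camp. Without it the log2 fold changes of S100a8, S100a9, Retnlg, Ngp and Mmp8 were -0.066, -0.055, -0.048, -0.017 and 0.019. Those of Mpo, Ltf, Cxcr2 and Elane were 0.055, 0.039, 0.25 and 0.33, so 5 of the 10 genes lay above 0, with Camp below. Elane then had an unadjusted p of 0.0332 and an adjusted p of 0.404, and db/db+TSF replicate 1 also carried its small difference.

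**Figure D3:**
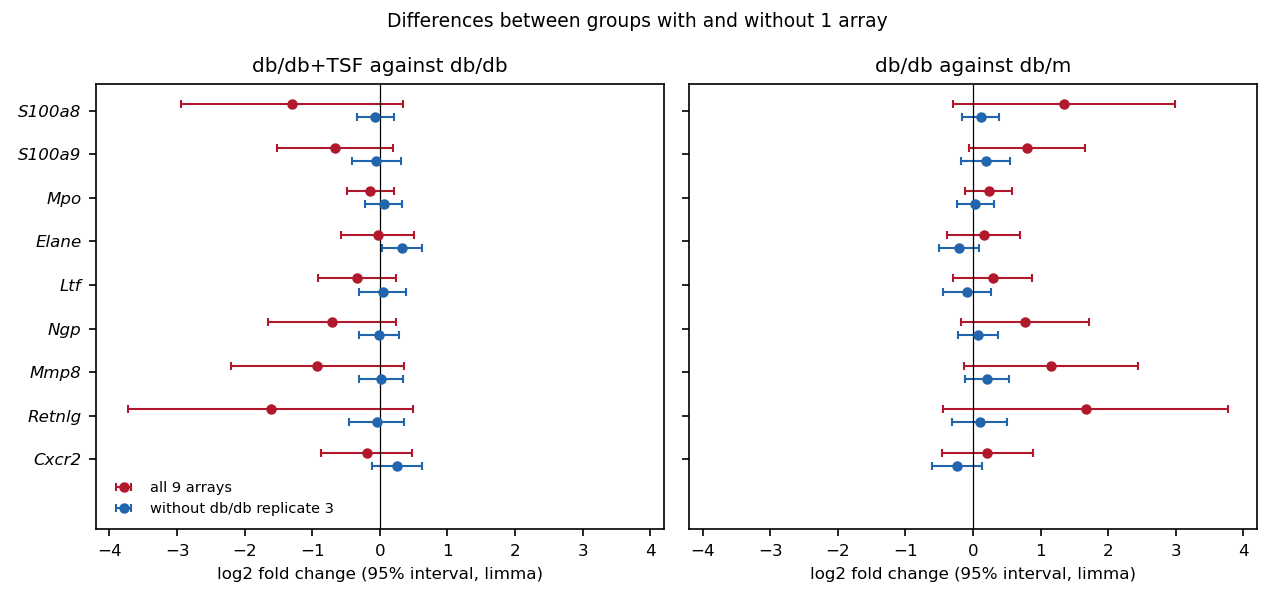
Log2 fold changes with 95% intervals from limma for the 9 tested genes, in db/db+TSF against db/db (left) and db/db against db/m (right), with all 9 arrays (red) and without db/db replicate 3 (blue). The S100a8 difference is -1.30 with all arrays and -0.066 without that array on the left, and 1.35 and 0.12 on the right.

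The last pair, treated diabetic against lean kidneys, holds no db/db array in its means. The 9 tested genes had differences of -0.049 for Ltf to 0.23 for Mmp8, and adjusted p-values lay between 0.828 and 0.985. With Camp, 9 of the 10 lay above 0, at a median of 0.072. None passed and 0 had an unadjusted p under 0.05, while 556 of all 17740 genes passed, or 3.13%, and 3050 had an unadjusted p under 0.05. In 9.76% of all genes, and in 0 of the 9, the db/db+TSF arrays all lay above the db/m arrays. The spread estimate of this fit includes db/db replicate 3. In a fit without that array the SE of the S100a8 difference was 0.11, with a 95% interval of -0.20 to 0.29, against an SE of 0.75 and an interval of -1.60 to 1.69 with it. For Retnlg the interval without that array was -0.31 to 0.41.

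Other neutrophil genes were measured in lists taken from textbook knowledge and drawn up with earlier results of these data known. Of 23 tested genes of other granule and secreted neutrophil proteins, db/db replicate 3 stood apart above for 5, namely Lcn2, Mmp9, Hp, Pglyrp1 and Cd177, and was the highest of the 9 arrays for 13. The list's median gap was 0.30. Lcn2, lipocalin-2 of secondary granules and of injured tubules, measured 6.25, 4.95 and 5.50 in db/db+TSF kidneys, 5.47, 5.17 and 7.88 in db/db kidneys and 5.17, 4.87 and 5.28 in db/m kidneys. The highest Lcn2 level after db/db replicate 3 was that of db/db+TSF replicate 1. Mmp9, gelatinase B of tertiary granules, measured 3.71, 3.95 and 5.41 in db/db kidneys. Stfa2l1, a stefin gene under the filter, measured 2.15, 2.02 and 3.72 there.

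Within the same list, 4 primary granule and promyelocyte genes picked after their values were seen did not stand apart. In db/db replicate 3 Prtn3, proteinase 3, measured 4.64, against 4.37 and 4.63 in the other db/db arrays. Ctsg, cathepsin G, measured 3.29 against 3.07 and 2.92, and Ms4a3, a gene of granulocyte precursors, 2.70 against 2.79 and 2.65. Prss57, another granule serine protease, measured 3.66 against 3.50 and 3.67. The primary granule genes Mpo and Elane, by contrast, had gaps of 0.59 and 1.09 in db/db replicate 3 and were highest there. The 4 picked genes therefore do not stand for all genes of this kind.

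Of 28 tested neutrophil surface and signalling genes, db/db replicate 3 stood apart above for 5, with a list median gap of 0.34, and was the highest array for 17. The 5 were Ifitm6, Il1r2, Ly6g, Trem1 and Asprv1. Ifitm6, an interferon-induced transmembrane gene, measured 2.84, 2.85 and 5.85 in db/db kidneys, and Il1r2, the decoy receptor for interleukin-1, measured 3.01, 3.60 and 4.81. Ly6g, the antigen by which mouse neutrophils are sorted, measured 2.90, 2.97 and 4.33. Csf3r, the G-CSF receptor, had a gap of 0.88 and Cxcr4, which holds neutrophils in the marrow, one of -0.27. The regulators Cebpe, Gfi1 and Spi1 (PU.1) had gaps of -0.14, 0.25 and 0.18. From both lists only Fcgr4, an Fc receptor shared with macrophages, passed in any comparison. It fell by 0.45 in db/db+TSF against db/m kidneys (adjusted p = 0.041), where 3.13% of all genes passed.

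The rest of the S100 family did not share the pattern of S100a8 and S100a9. Of the 18 S100 genes measured, 15 lie on chromosome 3, where S100a8 and S100a9 follow each other in the RefSeq order of these S100 genes. The gaps of the other 13 S100 genes of that chromosome lay between -0.30 and 0.34 in db/db replicate 3, and none of the 11 tested stood apart. S100a6, expressed in many dividing cells, had the 0.34, and S100a7a, next to S100a8 on the other side in that order, had -0.057. S100g, a calcium carrier of the distal tubule, rose by 0.50 in db/db+TSF against db/m kidneys (adjusted p = 0.031), where 3.13% of all genes passed. It was the single one of 15 tested S100 genes to pass in any comparison.

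Receptors and signalling genes downstream of calprotectin did not stand apart in db/db replicate 3, with 0 of 11 tested and a median gap of 0.094. Neutrophil-attracting chemokines, growth factors and adhesion genes did not either, with 0 of 12 and a median gap of 0.085, and for 0 of the 12 was db/db replicate 3 the highest array. None of these 23 genes passed in any comparison.

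Markers of other blood cells differed in how they moved with this array. Of 8 platelet markers tested, db/db replicate 3 stood apart above for 3, with a list median gap of 0.63. Ppbp, a platelet chemokine, measured 6.91, 6.86 and 9.10 in db/db kidneys, Gp9 of the von Willebrand receptor 5.63, 5.70 and 7.44, and Tubb1, platelet tubulin, 4.87, 4.63 and 6.14. The summed platelet intensity was 880 in db/db replicate 3 and 232 to 268 in the other 8 arrays. Of 17 red cell entries only 7 matched a probe set with a single symbol. These 7 markers summed to 271 in db/db replicate 3 and to 154 to 200 in the other arrays. Their mean log2 level was 4.16 in db/db replicate 3 and 3.64 to 3.76 in the other 8 arrays. Of the 5 tested, 0 stood apart, with a median gap of 0.19. No marker of either list was at 0 intensity in any array. The same held for all probe sets, whose lowest intensity was 1.34, so this does not show that the markers were detected. The part of platelets or blood in the neutrophil values was not tested.

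Monocyte, macrophage and dendritic cell markers did not stand apart, with 0 of 18 tested and a median gap of 0.067. Their summed intensity was 1241 in db/db replicate 3, against 1096 to 1233 in the other 8 arrays. In db/db+TSF against db/m kidneys 6 of the 18 fell past the threshold and 1 rose, with Csf1r, the macrophage growth factor receptor, at a log2 fold change of -0.83 (SE 0.18, adjusted p = 0.0301). Over all 17740 genes 340 fell and 216 rose in that comparison, and 82 fell and 105 rose in db/db against db/m. Markers of T, B and plasma cells (0 of 13, median gap -0.11) and of eosinophils, basophils and mast cells (0 of 9, median gap -0.027) did not stand apart either. Of the 13, 1 fell past the threshold in db/db against db/m and 3 fell in db/db+TSF against db/m. Tubular injury and acute phase genes, 0 of 19 apart, had a median gap of 0.29. Past the threshold, 2 of the 19 rose in db/db against db/m and 1 rose in db/db+TSF against db/m. In 17 of the 19 db/db replicate 3 was higher than both other db/db arrays. In 10 it was the highest of the 9 arrays, and the shares over all genes were not counted. The list's summed intensity was 1577 in that array and 1065 to 1429 in the others, and the part of tubular injury in the neutrophil values was not tested. Proximal tubule markers had a median gap of -0.12, and 3 of 12 fell past the threshold in db/db+TSF against db/m.

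**Figure D4:**
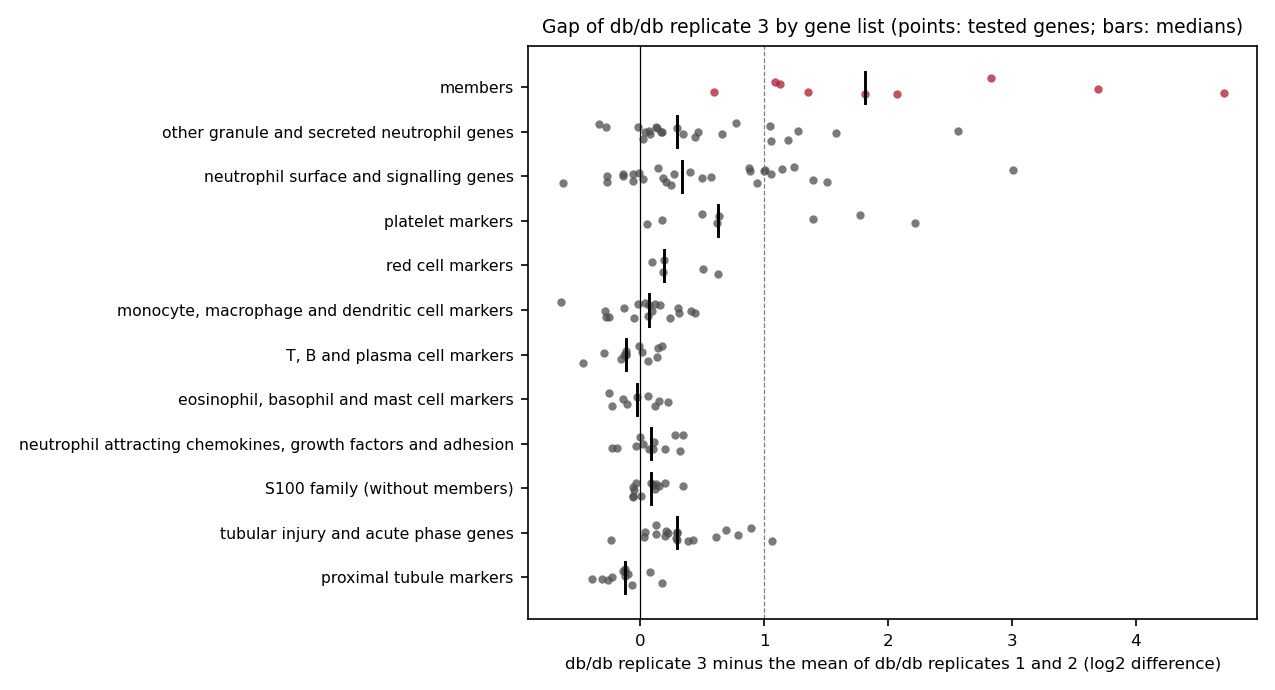
Gap of db/db replicate 3 to the mean of db/db replicates 1 and 2 by gene list, with 1 point per tested gene, a bar at each median, and a dashed line at 1 log2 unit. Points of the 9 tested neutrophil genes reach 4.71, other neutrophil and platelet lists have members beyond 1, and lymphocyte, mast cell and chemokine lists have none beyond 1.

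The genes whose levels ran most like the mean of S100a8 and S100a9 over the 9 arrays were sought among 1136 tested genes with a range of at least 1. Outside the 10 neutrophil genes they were Ppbp (Pearson r 0.99), Gp9 (0.98), Ifitm6 (0.98), Gda (0.97), Wfdc17 (0.97), Cd177 (0.96), Epo (0.96), Nrep (0.96), Slc25a37 (0.96) and Grem1 (0.95). Ppbp and Gp9 are platelet genes, Ifitm6 and Cd177 are neutrophil genes, and Slc25a37 imports iron into mitochondria of developing red cells. Spearman rho, which weighs ranks, ran from -0.083 for Nrep to 0.72 for Grem1. The likeness rests on db/db replicate 3. Without it r over 8 arrays ranged from -0.54 for Nrep to 0.68 for Grem1, and was 0.42 for Ppbp, 0.048 for Ifitm6 and -0.11 for Cd177. Among the neutrophil genes, Retnlg had r of 0.99 with all arrays and 0.65 without that array, Mmp8 0.98 and 0.018, Ngp 0.98 and -0.0035, and Ltf 0.87 and -0.71. S100a8 and S100a9 are themselves part of the mean. The points share arrays and depend on 1 of them, so these values describe it.

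**Figure D5:**
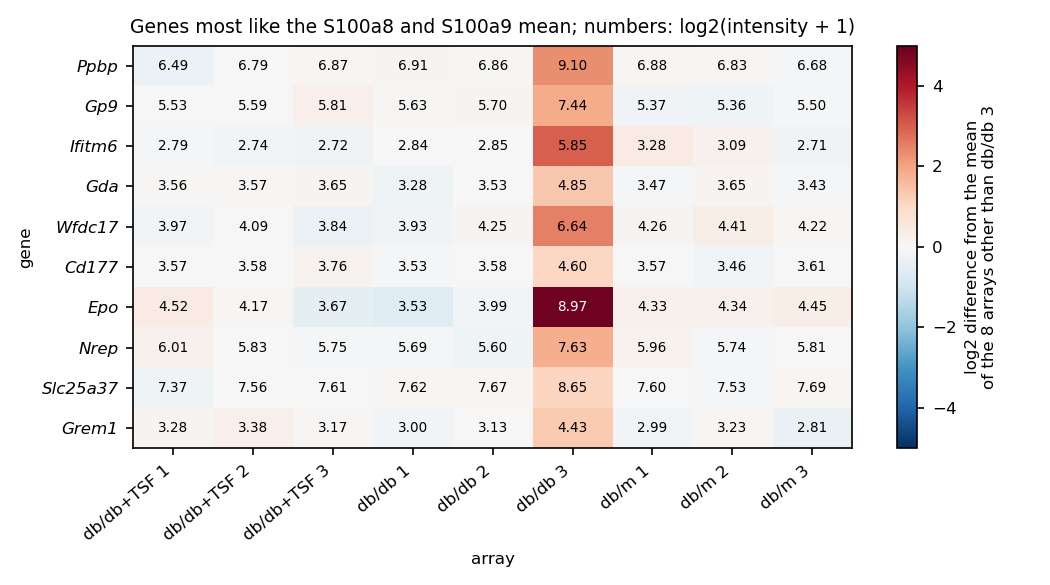
Levels of the 10 genes most like the S100a8 and S100a9 mean, as log2(intensity + 1) in the cells, by array, with colour for the difference from the mean of the 8 arrays other than db/db replicate 3. The column of db/db replicate 3 is high for all 10 genes, with Epo at 8.97 there and between 3.53 and 4.52 in the other arrays.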

How the data were processed

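The deposited values are linear intensity values, 1 for each array and probe set. Per the submitters' processing notes the authors used Affymetrix Expression Console and Transcriptome Analysis Console, with settings not given in the sources used here. Of 41345 probe sets, 23521 had 1 gene symbol in the platform annotation and covered 22180 genes, and the brightest probe set stood for its gene. Values were transformed as log2(intensity + 1), which understates the fold changes of dim genes. Genes averaging less than the 30th percentile over probe sets were left out of the test, which left 17740. Limma version 3.58.1 in R version 4.3.3 fitted 1 mean per group over the 9 arrays (lmFit, eBayes without trend or robust settings), with Benjamini-Hochberg adjustment over the genes tested. The test was tested on simulated data whose changed genes were raised in every db/db array, so that check does not cover a rise in 1 array. Array number limits the precision.

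The 10 genes, the 15 lists (254 entries, 227 matched), the threshold for standing apart and the rule for named genes were chosen with earlier results of these data known. The rule took the 10 genes, from each list up to 4 genes of largest gap and any past the threshold, and the 10 most similar genes. Not every gene the rule took is named above. Genes named beyond it, among them Prtn3, Ctsg, Ms4a3, Prss57, Csf3r, Cxcr4, Cebpe, Gfi1, Spi1, S100a6, S100a7a and Lepr, were chosen after their values were seen. Promoter windows come from RefSeq, all 10 matched.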

Additional observations from a re-analysis of the deposited data

How the results depend on the processing

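Under the 19 settings tried per comparison, which changed scaling, filter, pseudocount, probe set, variance model, arrays in the fit and the replicate block, 0 of the neutrophil genes passed. Among the 9 genes past the filter the lowest adjusted p was 0.252 (S100a9, db/db against db/m without db/db replicate 1). Camp, tested only with no filter on dim genes, had an adjusted p of 0.161 in db/db against db/m. Cxcr2 in db/db+TSF against db/m turned to -0.029 with median scaling and -0.0077 with quantile normalization. Leaving out 1 array at a time turned the sign 3, 6 and 8 times in db/db against db/m, db/db+TSF against db/db and db/db+TSF against db/m. In db/db against db/m the ranges were -0.21 to 0.43 for Elane, -0.088 to 0.54 for Ltf and -0.24 to 0.55 for Cxcr2. In db/db+TSF against db/db they were -0.26 to 0.055 for Mpo, -0.31 to 0.33 for Elane, -0.59 to 0.039 for Ltf, -1.41 to 0.019 for Mmp8 and -0.54 to 0.25 for Cxcr2. In db/db+TSF against db/m they were -0.048 to 0.14 for S100a8, -1.3e-05 to 0.16 for Mpo, -0.15 to 0.081 for Ltf, -0.032 to 0.11 for Ngp, -0.011 to 0.095 for Retnlg and -0.097 to 0.13 for Cxcr2. The lowest values of the first set and the highest of the second came without db/db replicate 3. Counts over all genes ranged over 72 (without db/db replicate 1) to 194 (without db/db+TSF replicate 2) in db/db against db/m, with 82 without db/db replicate 3, and over 213 (without db/db+TSF replicate 3) to 563 (without db/db replicate 3) in db/db+TSF against db/m; the cause was not tested. Replicate numbers are labels: same-numbered arrays correlated at -0.079 to 0.15 in their deviations and others at -0.16 to 0.16, and with the replicate block 0 neutrophil genes passed, with 137 and 434 genes past the threshold in db/db against db/m and db/db+TSF against db/m. At a standing-apart threshold of 0.5 or 1.5 log2 units, chosen after seeing the data, db/db replicate 3 stood apart for 9 or 5 of the 9 genes. The shares of all genes at these thresholds were not counted, so the member counts have no background beside them. Signal over background was not assessed, as no detection calls were used.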

Other observations

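Of the 51 genes for which db/db replicate 3 stood apart above, 6 were neutrophil genes described above, 10 more stood in the neutrophil lists and 3 in the platelet list, while 32 stood in no list. It was the highest of the 9 arrays for 47 of them, which choosing genes high in this array favours. The largest gap belonged to Epo, erythropoietin, a hormone that kidney interstitial cells make when oxygen is low. Epo measured 4.52, 4.17 and 3.67 in db/db+TSF kidneys, 3.53, 3.99 and 8.97 in db/db kidneys and 4.33, 4.34 and 4.45 in db/m kidneys. Ddit4, a stress and oxygen-responsive inhibitor of mTOR, measured 5.89, 6.0 and 7.64 in db/db kidneys, and Pdk4, a kinase that turns off pyruvate oxidation, measured 7.07, 6.16 and 8.13 there. In Pdk4 db/db+TSF replicate 1, at 9.02, and db/m replicate 3, at 8.65, were higher still. Ddit4, Pdk4 and the genes of the next paragraph were named after their values were seen.

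Among the 9 genes for which the same array stood apart below were Ugt2b37, a glucuronosyltransferase, at 8.15, 7.99 and 5.77 in db/db kidneys, and Car3, a carbonic anhydrase, at 7.73, 8.21 and 5.83 there. Ugt2b37 was also at 5.83, 6.27 and 7.40 in db/db+TSF kidneys and at 10.2 to 10.4 in db/m kidneys, so its low array had neighbours in another group, unlike Epo, Retnlg and S100a8.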
